A study of Mus with 12 samples.

Results

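The genes described here encode the MHC class II antigen presentation machinery, chosen by name from the table of blood genes. The list holds the class II chains H2-Aa, H2-Ab1 and H2-Eb1, the invariant chain Cd74, the peptide exchange subunits H2-DMa, H2-DMb1 and H2-DMb2, the inhibitory subunits H2-Oa and H2-Ob, and the class II transactivator Ciita. All 10 were found among 25247 genes, and 9 passed the filter for testing, 1 FPKM (fragments per kilobase of gene, scaled to library size) or more in 3 or more of the 12 libraries. Ciita reached that level only in Solvent 1 and did not pass, so it is described by its levels and by a fit without the filter.

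Blood RNA came from 12 female BALB/c mice, 6 weeks old when obtained, in 4 groups of 3 with 1 library per mouse. The Solvent group received the vehicle, acetone with olive oil, on shaved dorsal skin. The DNCB group was sensitized with 1% 1-chloro-2,4-dinitrobenzene, a contact allergen, and challenged with 0.5% of it, which gives an atopic dermatitis-like skin disease. The scMSC group received the same DNCB treatment and doses of 2000000 human umbilical cord mesenchymal stem cells under the dorsal skin in 100 µL. The scivMSC group received DNCB and the same number of cells, with 50 µL under the skin and 50 µL into the tail vein. Blood was taken on day 30. Every MSC mouse had also received DNCB, and no group received MSCs alone.

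Class II molecules present peptides from proteins taken up from outside the cell to CD4 T cells. In the blood of mice their genes are active mainly in B cells, and also in monocytes and dendritic cells. New class II dimers are held by the invariant chain, the heterodimer H2-DM removes its last fragment and loads peptide, and H2-DO restrains H2-DM, chiefly in B cells. Ciita is the coactivator that switches this set of genes on.

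The 12 libraries held between 52179764 and 65139421 estimated counts, at about 4 counts for each fragment, and haemoglobin genes took between 78.4% and 89.0% of them. Library composition differed between groups: the number of genes that reached 4 counts was lowest in scivMSC 2, at 11806, and highest in Solvent 3, at 17350, and TMM factors, which measure how far the bulk of genes lies from the library total, ranged from 0.33 in scivMSC 2 to 1.87 in Solvent 1. For this reason levels below are given on the FPKM scale, and counts of called genes both with libraries scaled by total counts and after TMM scaling, which sets the bulk of genes near 0. A log2 fold change with no scaling named is on the total-count scale.

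The identifiers and positions are those of the deposited table. Of the 10 genes, 8 lay on chromosome 17 between positions 34092340 and 34316674, a span of 224 kilobases, in the order H2-Oa, H2-DMa, H2-DMb2, H2-DMb1, H2-Ob, H2-Ab1, H2-Aa and H2-Eb1. Cd74 lay on chromosome 18 and Ciita on the plus strand of chromosome 16 from 10480059 to 10526426. The notes list the build mm8, while both ends of 2 genes, and 1 end or both of 4, equalled the RefSeq annotation of GRCm38.p6, so the build of these positions is uncertain. H2-DMb1 and H2-DMb2 are near-identical neighbours whose reads the counting may have split between them. H2-DMa, H2-Oa and Ciita overlap genes on the other strand, Brd2, BC051537 and Dexi, and the use of strand in counting was not stated. The mean FPKM over the 12 libraries was 2.17 for Brd2, 0.291 for Dexi and 0.0540 for BC051537. H2-DMa also overlaps 2 genes known by systematic names on the other strand, at 0.0154 and 0.0980, and Cd74 the microRNA gene Mir5107 on its own strand, at 1.01.

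The blood of DNCB mice held less class II RNA than that of Solvent mice. With libraries scaled by total counts, 6 of the 9 tested genes fell (edgeR quasi-likelihood test, Benjamini-Hochberg adjusted p under 0.05 over all tested genes, and a change of more than 2-fold), namely the 3 class II chains, Cd74, H2-DMb2 and H2-Ob. Over all 5527 tested genes, 4.87% were called lower in that comparison. The median log2 fold change was -1.80 for the 9 genes and 0.06 for all tested genes. After TMM scaling 8 of the 9 fell, with H2-Oa the exception, against 11.5% of all tested genes. In whole blood, fewer cells of a type and less RNA per cell cannot be told apart.

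**Figure D1:**
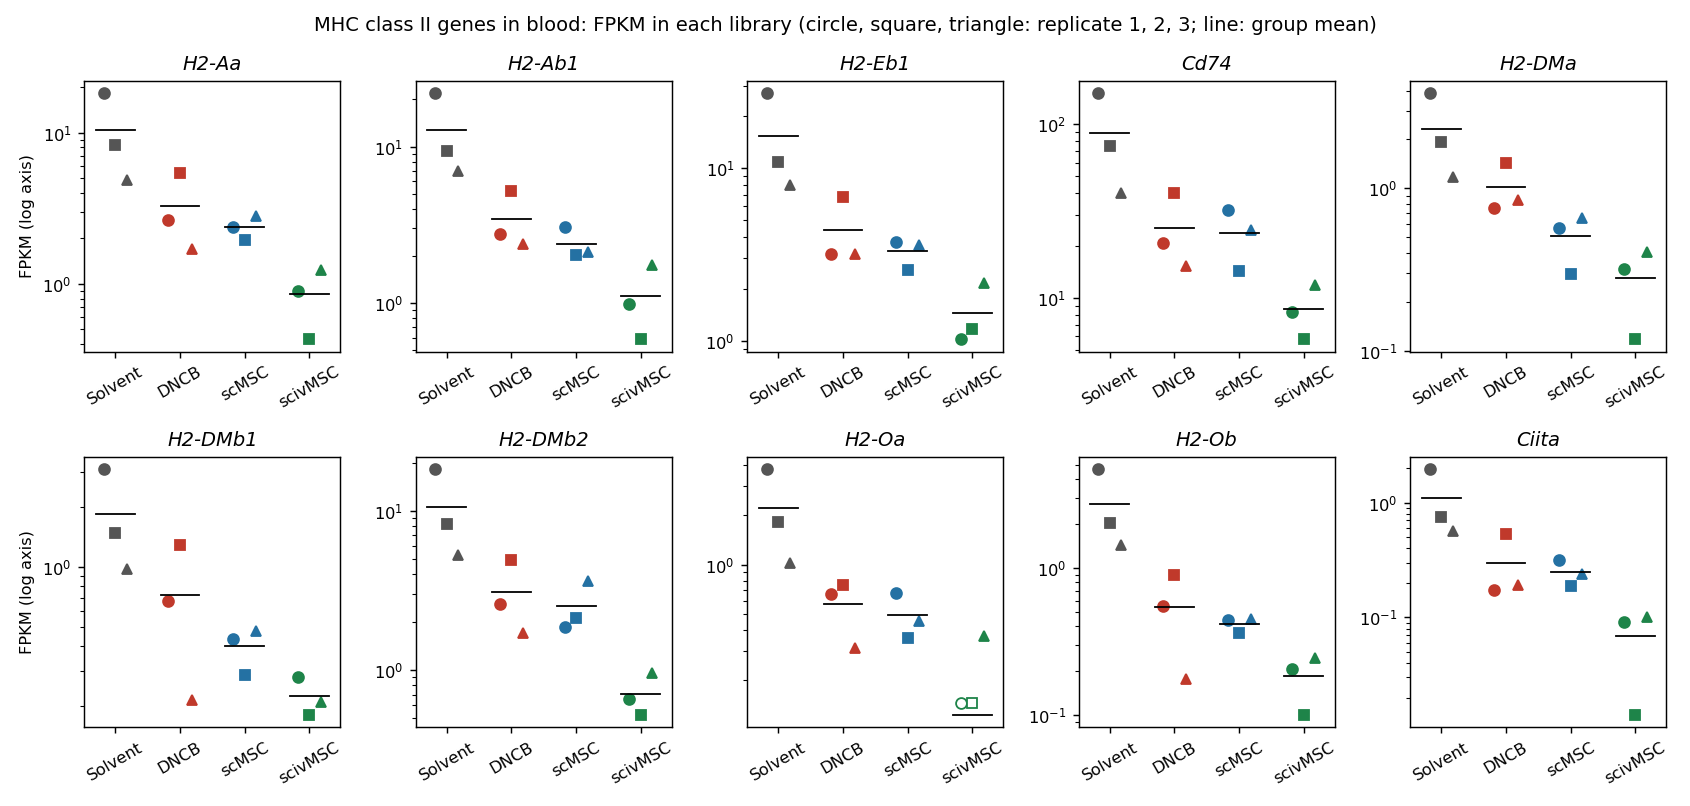
FPKM of the 10 class II genes in each of the 12 libraries, on a log axis, with a line at the mean of each group of 3. Open symbols for H2-Oa stand for 2 scivMSC libraries listed at 0, with floors of 0.145 and 0.148 FPKM, both drawn at 0.145. Solvent 1 is the highest library for every gene, and all 3 scivMSC libraries lie below all 3 Solvent libraries for every gene.

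H2-Ab1 encodes the beta chain of the I-A molecule. Its FPKM was 21.9, 9.39 and 7.02 in Solvent mice, 2.74, 5.19 and 2.37 in DNCB mice, 3.04, 2.01 and 2.11 in scMSC mice, and 0.983, 0.583 and 1.74 in scivMSC mice. The Solvent libraries lay above all others, the DNCB and scMSC ranges overlapped, and every scivMSC library lay below every DNCB and scMSC library. Compared with Solvent, H2-Ab1 fell by 1.89 ± 0.48 (log2 fold change ± SE, edgeR adjusted p = 0.00946) in DNCB mice, which is 3.70-fold. After TMM scaling the log2 fold change was -1.98 ± 0.35 (edgeR adjusted p = 0.000601).

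H2-Aa encodes the alpha chain of the same molecule. Its FPKM was 18.2, 8.23 and 4.86 in Solvent, 2.65, 5.42 and 1.70 in DNCB, 2.36, 1.96 and 2.83 in scMSC, and 0.893, 0.429 and 1.23 in scivMSC mice. One DNCB library, DNCB 2, lay above the lowest Solvent library, so these groups overlapped, whereas all scMSC and scivMSC values lay below the Solvent values. H2-Aa fell by 1.67 ± 0.51 on the log2 scale in DNCB against Solvent mice (edgeR adjusted p = 0.0258).

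H2-Eb1, the beta chain of the I-E molecule, was at 27.1, 10.9 and 7.99 FPKM in Solvent, 3.19, 6.79 and 3.17 in DNCB, 3.76, 2.59 and 3.59 in scMSC, and 1.02, 1.18 and 2.17 in scivMSC libraries. No DNCB library reached the lowest Solvent library. Its log2 fold change in DNCB against Solvent mice was -1.80 ± 0.47 (edgeR adjusted p = 0.0111). Its partner chain H2-Ea, outside the list, fell by 1.85 ± 0.49 (edgeR adjusted p = 0.0126) with group means of 43.7 ± 30.7 FPKM (SD, n = 3) in Solvent and 12.1 ± 5.96 in DNCB mice. H2-Eb2, the other class II chain looked at, did not pass the filter and stayed at or below 0.378 FPKM in every library.

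Cd74, the invariant chain, was the most abundant of the 10 genes on the FPKM scale in each group and made up between 56.9% and 70.3% of their summed FPKM in a library. Its FPKM was 150, 74.9 and 40.1 in Solvent, 20.6, 40.0 and 15.3 in DNCB, 31.9, 14.2 and 24.5 in scMSC, and 8.25, 5.77 and 11.8 in scivMSC libraries. The highest DNCB library lay just under the lowest Solvent library, and the DNCB and scMSC libraries were intermingled. Cd74 fell by 1.80 ± 0.47 on the log2 scale in DNCB against Solvent mice (edgeR adjusted p = 0.0105), or 3.49-fold.

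H2-DMa and the H2-DMb genes encode the subunits of the H2-DM heterodimer. H2-DMa was at 3.85, 1.93 and 1.18 FPKM in Solvent, 0.753, 1.44 and 0.848 in DNCB, 0.569, 0.298 and 0.652 in scMSC, and 0.320, 0.117 and 0.403 in scivMSC libraries. It was the single gene of the 10 whose scMSC libraries all lay below the DNCB libraries, and its DNCB and Solvent ranges overlapped. In DNCB against Solvent mice its log2 fold change was -1.18 ± 0.53 (edgeR adjusted p = 0.125) with total-count scaling and -1.27 ± 0.35 (adjusted p = 0.0108) after TMM scaling.

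H2-DMb2 was at 18.3, 8.24 and 5.26 FPKM in Solvent, 2.59, 4.92 and 1.70 in DNCB, 1.86, 2.13 and 3.60 in scMSC, and 0.654, 0.521 and 0.953 in scivMSC libraries. H2-DMb1 ran lower, at 3.09, 1.47 and 0.973, then 0.670, 1.28 and 0.214, then 0.435, 0.286 and 0.475, and 0.281, 0.180 and 0.210 FPKM in the same order of groups. For H2-DMb2 the Solvent and DNCB ranges were apart, and for H2-DMb1 they overlapped. The log2 fold change in DNCB against Solvent mice was -1.78 ± 0.50 for H2-DMb2 (edgeR adjusted p = 0.0166) and -1.34 ± 0.61 for H2-DMb1 (adjusted p = 0.137), and H2-DMb1 passed after TMM scaling at -1.48 ± 0.46 (adjusted p = 0.0208). With the counts of both summed, so that a split of reads between them has no effect, it was -1.71 ± 0.49 (edgeR adjusted p = 0.0190).

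Both chains of the inhibitor H2-DO were scarce, as were H2-DMa, H2-DMb1 and Ciita. H2-Ob was at 4.70, 2.01 and 1.44 FPKM in Solvent, 0.547, 0.897 and 0.176 in DNCB, 0.443, 0.360 and 0.447 in scMSC, and 0.207, 0.0998 and 0.243 in scivMSC libraries. Its Solvent libraries lay above all others, and it had the greatest estimated decrease of the 9 tested genes in DNCB against Solvent mice, with a log2 fold change of -2.32 ± 0.57 (edgeR adjusted p = 0.00743), or 4.99-fold. H2-Oa was at 3.79, 1.82 and 1.02 FPKM in Solvent, 0.664, 0.749 and 0.314 in DNCB, and 0.674, 0.361 and 0.457 in scMSC libraries. In scivMSC libraries H2-Oa was listed at 0 in 2 libraries, where 3 fragments, the limit that a count of 0 allows, would give 0.145 and 0.148 FPKM, and at 0.367 FPKM in the other. Its Solvent and DNCB ranges did not overlap, and its log2 fold change of -1.91 ± 0.96 did not pass the test (edgeR adjusted p = 0.181).

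Ciita was at 1.96, 0.744 and 0.561 FPKM in Solvent, 0.174, 0.535 and 0.191 in DNCB, 0.314, 0.188 and 0.238 in scMSC, and 0.0921, 0.0141 and 0.10 in scivMSC libraries. It was the lowest of the 10 genes in each group mean on the FPKM scale, and its Solvent libraries lay above all others. In a fit of all 25247 genes without the filter, its log2 fold change in DNCB against Solvent mice was -1.85 ± 0.56 (edgeR adjusted p = 0.0436).

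Counted over all 10 genes, 7 had every DNCB library below every Solvent library on the FPKM scale, against 16.5% of all tested genes. The exceptions were H2-Aa, H2-DMa and H2-DMb1. Solvent 1 was the highest and Solvent 3 the lowest of its group for all 10 genes, and DNCB 2 was the highest of its group for all 10. Within the Solvent group the highest library exceeded the lowest 3.12-fold for H2-Ab1 and 3.75-fold for Cd74. Without Solvent 1, none of the 9 genes passed the test in DNCB against Solvent mice with total-count scaling (log2 fold changes from -1.66 to -0.61, edgeR adjusted p from 0.0533 to 0.493), whereas 6 still fell after TMM scaling (log2 fold changes from -2.07 to -0.96, edgeR adjusted p from 0.00314 to 0.269).

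Compared with the DNCB group, scMSC mice showed no called change in any class II gene. None of the 9 tested genes passed the edgeR test under either scaling, none had an unadjusted p under 0.05, and DESeq2 called 0, while 24.9% of all tested genes were called lower and 1.27% higher on the total-count scale, and 12.3% lower and 8.74% higher after TMM scaling. With total-count scaling all 9 estimates were below 0, with a median log2 fold change of -0.42 against -0.63 for all tested genes. After TMM scaling 7 of them turned above 0, with a median of 0.31 against 0.06 for all tested genes. The log2 fold change was -0.54 ± 0.47 for H2-Ab1 (edgeR adjusted p = 0.410) and -0.12 ± 0.45 for Cd74 (adjusted p = 0.860), and after TMM scaling 0.19 ± 0.34 (adjusted p = 0.700) and 0.60 ± 0.36 (adjusted p = 0.216). For H2-DMa it was -1.01 ± 0.53 (edgeR adjusted p = 0.168) and -0.31 ± 0.35 after TMM scaling (adjusted p = 0.527). On the FPKM scale the scMSC libraries all lay below the DNCB libraries for 1 of the 10 genes, H2-DMa, against 49.8% of all tested genes.

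**Figure D2:**
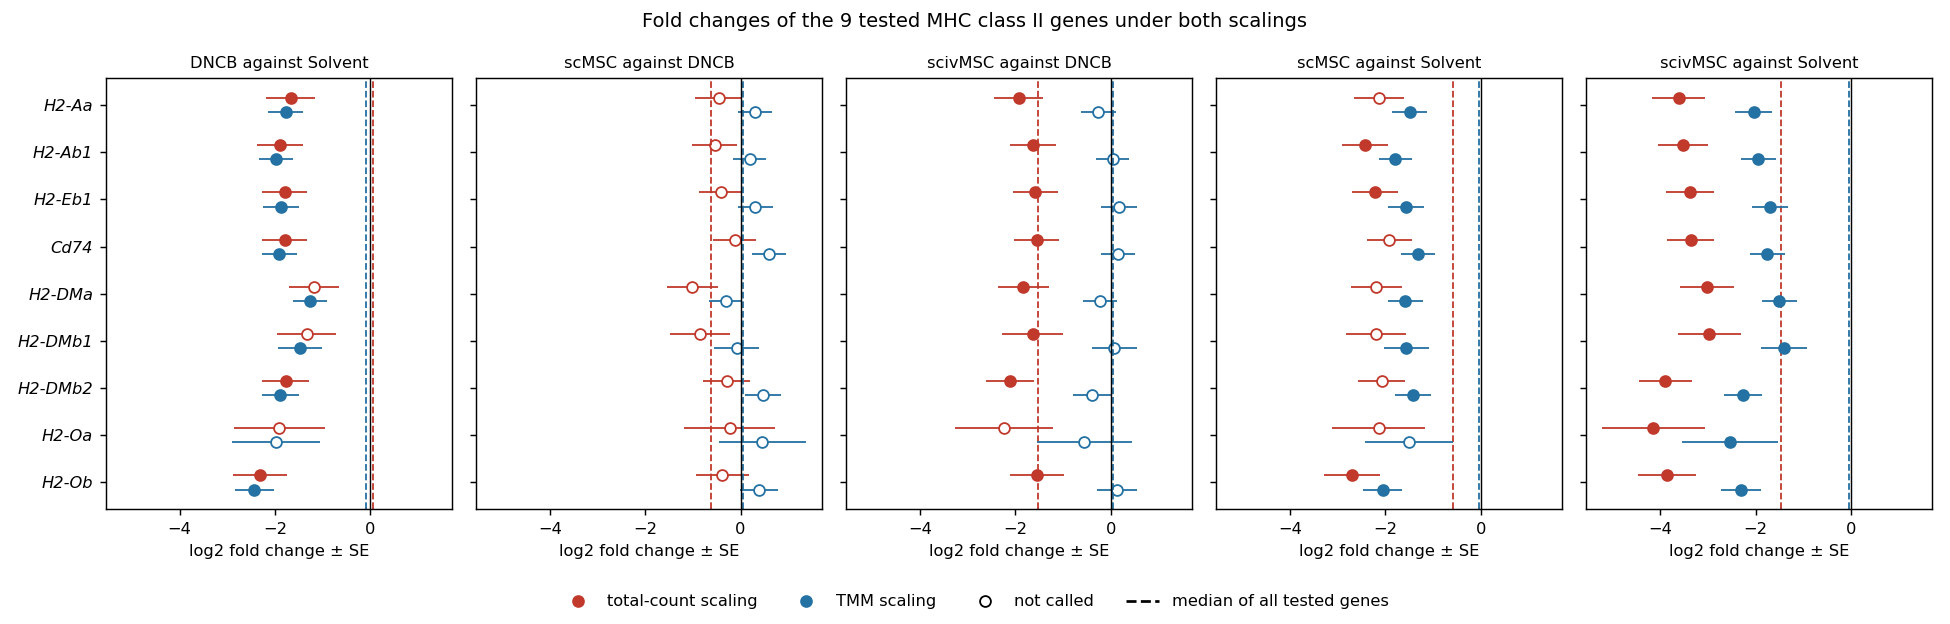
Log2 fold change ± SE of the 9 tested class II genes in 5 comparisons, with total-count scaling in red and TMM scaling in blue. Filled symbols passed the test, open symbols did not, and dashed lines mark the median of all tested genes. In scivMSC against DNCB mice the red symbols sit near their dashed line at -1.53 and the blue symbols near theirs at 0.04, whereas in DNCB against Solvent mice both lie well below.

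Compared with the DNCB group, scivMSC mice had lower class II values on the FPKM scale, and this difference depended on the scaling. With total-count scaling 8 of the 9 tested genes fell, all but H2-Oa, and 62.0% of all tested genes were called lower too. The median log2 fold change was -1.63 for the 9 genes and -1.53 for all tested genes. After TMM scaling edgeR called 0 of the 9, none had an unadjusted p under 0.05, and DESeq2 called 0, while 18.9% of all tested genes were called lower and 20.6% higher. The 9 estimates after TMM scaling ran from -0.55 for H2-Oa to 0.18 for H2-Eb1, with a median of 0.04, equal to that of all tested genes. TMM scaling also called all 8 erythroid and all 6 platelet markers higher in this comparison, with median log2 fold changes of 1.94 and 1.98. With total-count scaling 0 of these markers were called. Which scaling lies nearer to the amounts in blood was not tested.

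H2-DMb2 had the smallest adjusted p of the 9 genes in scivMSC against DNCB mice on the total-count scale, with a log2 fold change of -2.11 ± 0.51 (edgeR adjusted p = 0.00195), and stood at -0.39 ± 0.39 after TMM scaling (adjusted p = 0.428). For H2-Ab1 the pair of values was -1.63 ± 0.48 (edgeR adjusted p = 0.00704) and 0.04 ± 0.35 (adjusted p = 0.921), so that no change was detected after TMM scaling. Cd74 likewise went from -1.55 ± 0.47 (edgeR adjusted p = 0.00779) to 0.16 ± 0.36 (adjusted p = 0.725). On the FPKM scale 7 of the 10 genes had all scivMSC libraries below all DNCB libraries, against 67.9% of all tested genes. The exceptions were H2-DMb1, H2-Oa and H2-Ob, where DNCB 3 reached down into the scivMSC range.

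Between the MSC groups too, the calls depended on the scaling. In scivMSC against scMSC mice 3 of the 9 genes fell on the total-count scale, H2-Aa, Cd74 and H2-DMb2, while 30.4% of all tested genes were called lower. The log2 fold change of H2-DMb2 was -1.82 ± 0.51 (edgeR adjusted p = 0.0186) on that scale and -0.85 ± 0.39 after TMM scaling (adjusted p = 0.111). After TMM scaling edgeR called 0 of the 9, with 1 gene, H2-DMb2, at an unadjusted p under 0.05, and DESeq2 called 0, while 4.92% of all tested genes were called lower and 13.1% higher. The median of the 9 genes was then -0.25 against -0.01 for all tested genes. On the FPKM scale 8 of the 10 genes had all scivMSC below all scMSC libraries, the exceptions being H2-DMa and H2-Oa, against 46.7% of all tested genes. The count of 3 also depended on single libraries, falling to 0 without scMSC 3 and to 1 without scMSC 1 or scivMSC 2.

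Class II values of both MSC groups lay below those of the Solvent group on the FPKM scale. In scivMSC against Solvent mice all 9 tested genes fell under both scalings, with 59.2% of all tested genes called lower on the total-count scale and 13.4% after TMM scaling. The median log2 fold change of the 9 genes was -3.52 against -1.47 for all tested genes, and -1.94 against -0.05 after TMM scaling. H2-Ab1 was 11.5-fold lower (log2 fold change -3.52 ± 0.52, edgeR adjusted p = 0.000155), and after TMM scaling its log2 fold change was -1.94 ± 0.36 (adjusted p = 0.000629). In the fit without the filter Ciita stood at -3.97 ± 0.62 (edgeR adjusted p = 1.05e-05). All 10 genes had every scivMSC library below every Solvent library, which 62.6% of all tested genes had.

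In scMSC against Solvent mice 3 of the 9 genes fell on the total-count scale, H2-Ab1, H2-Eb1 and H2-Ob, while 0.326% of all tested genes were called lower. After TMM scaling 8 fell, against 1.21% of all tested genes, with H2-Oa again the exception. H2-Ab1 had a log2 fold change of -2.43 ± 0.49 (edgeR adjusted p = 0.0362), and -1.79 ± 0.35 after TMM scaling (adjusted p = 0.00629). Every scMSC library lay below every Solvent library for all 10 genes, against 40.6% of all tested genes. The number called without 1 library ranged from 0 to 9 on the total-count scale, being 0 without Solvent 1, Solvent 2, DNCB 1 or any of the scMSC libraries, 5 without Solvent 3, 8 without scivMSC 1 and 9 without scivMSC 2, and after TMM scaling it was 2 without Solvent 1. For these fits without 1 library the share of all tested genes called is not given. All these contrasts against the Solvent group share its 3 libraries, and those against the DNCB group share the DNCB libraries.

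Taken over the 4 groups, all 9 tested genes differed (edgeR quasi-likelihood F test, adjusted p from 7.49e-05 for H2-Ab1 to 0.0111 for H2-Oa), as did 72.3% of all tested genes. Summed over the 10 genes, FPKM was 148 ± 94.4 (SD, n = 3) in Solvent, 42.6 ± 21.8 in DNCB, 36.2 ± 10.8 in scMSC and 13.6 ± 5.27 in scivMSC mice. As a share of all FPKM outside the haemoglobin genes, the sum was 0.200% ± 0.0992 in Solvent, 0.0501% ± 0.0197 in DNCB, 0.0541% ± 0.0133 in scMSC and 0.0234% ± 0.00955 in scivMSC mice. The order of the genes by mean FPKM changed little between groups, with Cd74 first, H2-Eb1 next and Ciita last in all 4. BALB/c mice carry other alleles of these variable genes than the C57BL/6 reference genome, and its part in comparing levels between genes was not tested.

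The calls of the class II genes resembled those of the B cell markers, but their sums did not keep the same ratio. Of 12 B cell markers 10 were tested. All 10 fell in DNCB against Solvent mice under both scalings, against 4.87% and 11.5% of all tested genes. Their median log2 fold change was -2.09 on the total-count scale. Cd79a, a signalling chain of the B cell receptor, was 3.95-fold lower. In scMSC against DNCB mice none of the 10 was called under either scaling, where 24.9% and 12.3% of all tested genes were called lower. In scivMSC against DNCB mice 10 fell with total-count scaling, where 62.0% of all tested genes did. After TMM scaling 0 fell there, against 18.9% of all tested genes. The summed FPKM of the 12 markers ranged from 58.6 to 198 in Solvent, 16.9 to 48.4 in DNCB, 17.7 to 27.3 in scMSC and 4.86 to 10.6 in scivMSC mice. The sum over the class II genes was 1.26 ± 0.0529 times that of the B cell markers in Solvent (SD, n = 3), 1.56 ± 0.181 in DNCB, 1.66 ± 0.442 in scMSC and 1.69 ± 0.220 in scivMSC mice. Every Solvent library, at 1.20 to 1.30, lay below every library of the other groups. Those ranged from 1.39 to 1.75 in DNCB, 1.38 to 2.17 in scMSC and 1.44 to 1.83 in scivMSC mice. Cd74 alone made up 56.9% to 70.3% of the class II sum. The share of all tested genes that lay apart against the B cell sum is not given. Against Cd79a alone, 81.7% of all tested genes were higher in every DNCB than in every Solvent library, so such a rise is not particular to class II genes. The part of B cell number in the class II results was not tested.

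**Figure D3:**
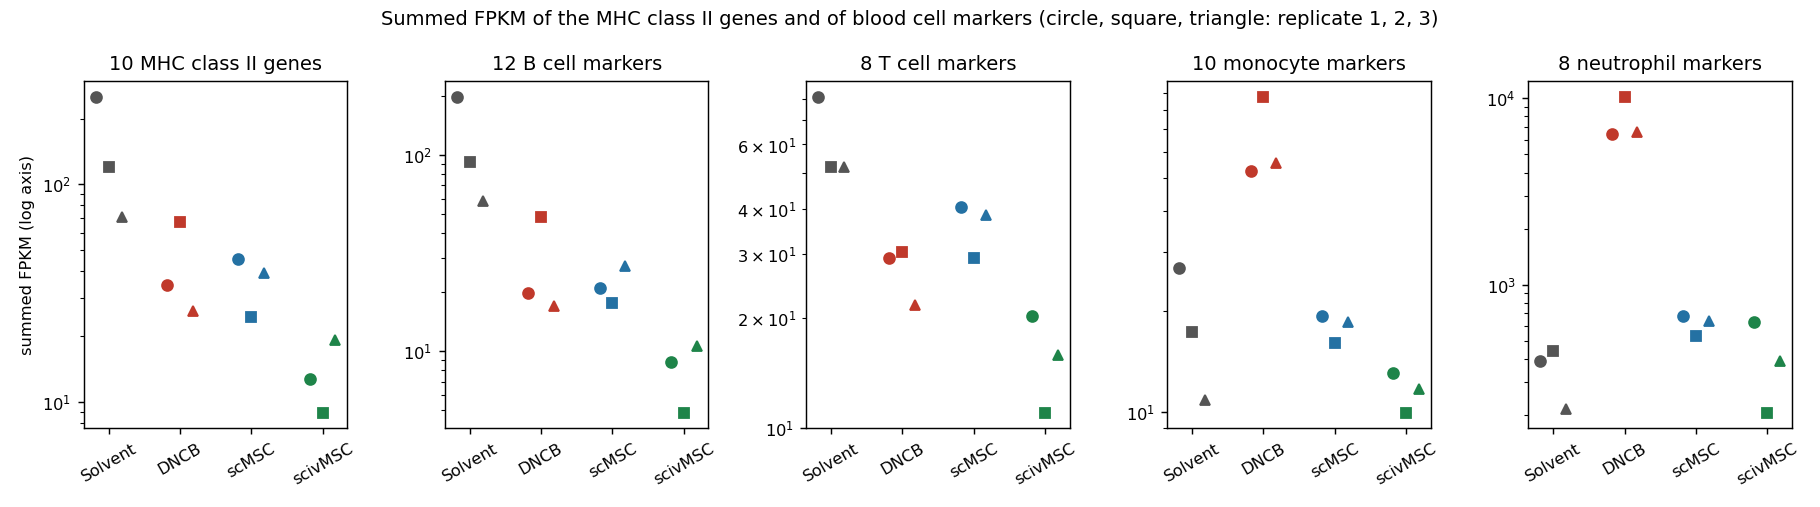
Summed FPKM of the 10 class II genes and of B cell, T cell, monocyte and neutrophil markers in each of the 12 libraries, on log axes. Class II and B cell sums are highest in Solvent mice, with Solvent 1 at 253 and 198, and lowest in scivMSC mice, while neutrophil sums reach 6468 to 10203 in the DNCB libraries.

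Most tested monocyte markers and all neutrophil markers were higher in DNCB than in Solvent mice. Of 10 monocyte markers 7 were tested, and 5 rose in DNCB against Solvent mice, with a median log2 fold change of 1.47, where 15.6% of all tested genes were called higher. Ccr2 and Ly6c2 were tested and not called, and Cx3cr1, below the filter, was at 0.681 ± 0.367 FPKM (SD, n = 3) in Solvent and 0.303 ± 0.171 in DNCB mice. The summed FPKM of the 10 monocyte markers ranged from 10.9 to 26.9 in Solvent, 52.5 to 87.5 in DNCB, 16.1 to 19.4 in scMSC and 9.97 to 13.1 in scivMSC libraries. All 8 neutrophil markers rose, and their summed FPKM ranged from 214 to 438 in Solvent and from 6468 to 10203 in DNCB libraries. Of 8 dendritic cell markers 1 was tested, Itgax, an integrin that is also present on other myeloid cells. Its log2 fold change was 1.28 ± 0.54 (edgeR adjusted p = 0.108), and it was called higher after TMM scaling at 1.09 ± 0.39 (adjusted p = 0.0397). The markers below the filter went both ways. Mean FPKM was lower in DNCB than in Solvent mice for Cd209a, Clec9a and Zbtb46. It was higher for Flt3, Xcr1, Siglech and Clec10a. These directions were not tested and rest on very low values. The means of Flt3, Siglech, Clec10a and Zbtb46 were at or below 0.0655 FPKM in both groups. Xcr1 was at 0.264 ± 0.118 in Solvent and 0.281 ± 0.0868 in DNCB mice, and Clec9a at 0.217 ± 0.0586 and 0.185 ± 0.0728. The DC-SIGN family gene Cd209a was listed at 0 in all DNCB libraries, with a mean of 0.196 FPKM in Solvent mice. The summed FPKM of the 8 dendritic cell markers ranged from 1.20 to 1.95 in Solvent and from 1.62 to 3.24 in DNCB libraries. Of 8 T cell markers 6 fell in DNCB against Solvent mice under both scalings, against 4.87% and 11.5% of all tested genes. In scMSC against DNCB mice 0 of them were called on the total-count scale. After TMM scaling 7 were called higher there, against 8.74% of all tested genes. In scivMSC against DNCB mice 3 fell on the total-count scale, against 62.0%, and 1 rose after TMM scaling, against 20.6%.

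Set beside Cd79a in the same library, a ratio that library scaling does not affect, H2-Ab1 had overlapping values in all groups. The FPKM ratio of H2-Ab1 to Cd79a was 0.395, 0.337 and 0.411 in Solvent, 0.452, 0.377 and 0.429 in DNCB, 0.449, 0.344 and 0.315 in scMSC, and 0.282, 0.360 and 0.652 in scivMSC libraries. The scivMSC libraries held both the lowest and the highest ratio. The tested ratio had 0.1 added to each FPKM, so that, unlike the ratio itself, it depends somewhat on library scaling where FPKM is low. An exact permutation test, with all 369600 arrangements of the group labels, gave p = 0.865, which was 0.865 after adjustment over the 3 ratios tested. A p-value of that size does not show that the ratios were equal, and the scivMSC group alone had an SD of 0.195 around its mean of 0.432.

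**Figure D4:**
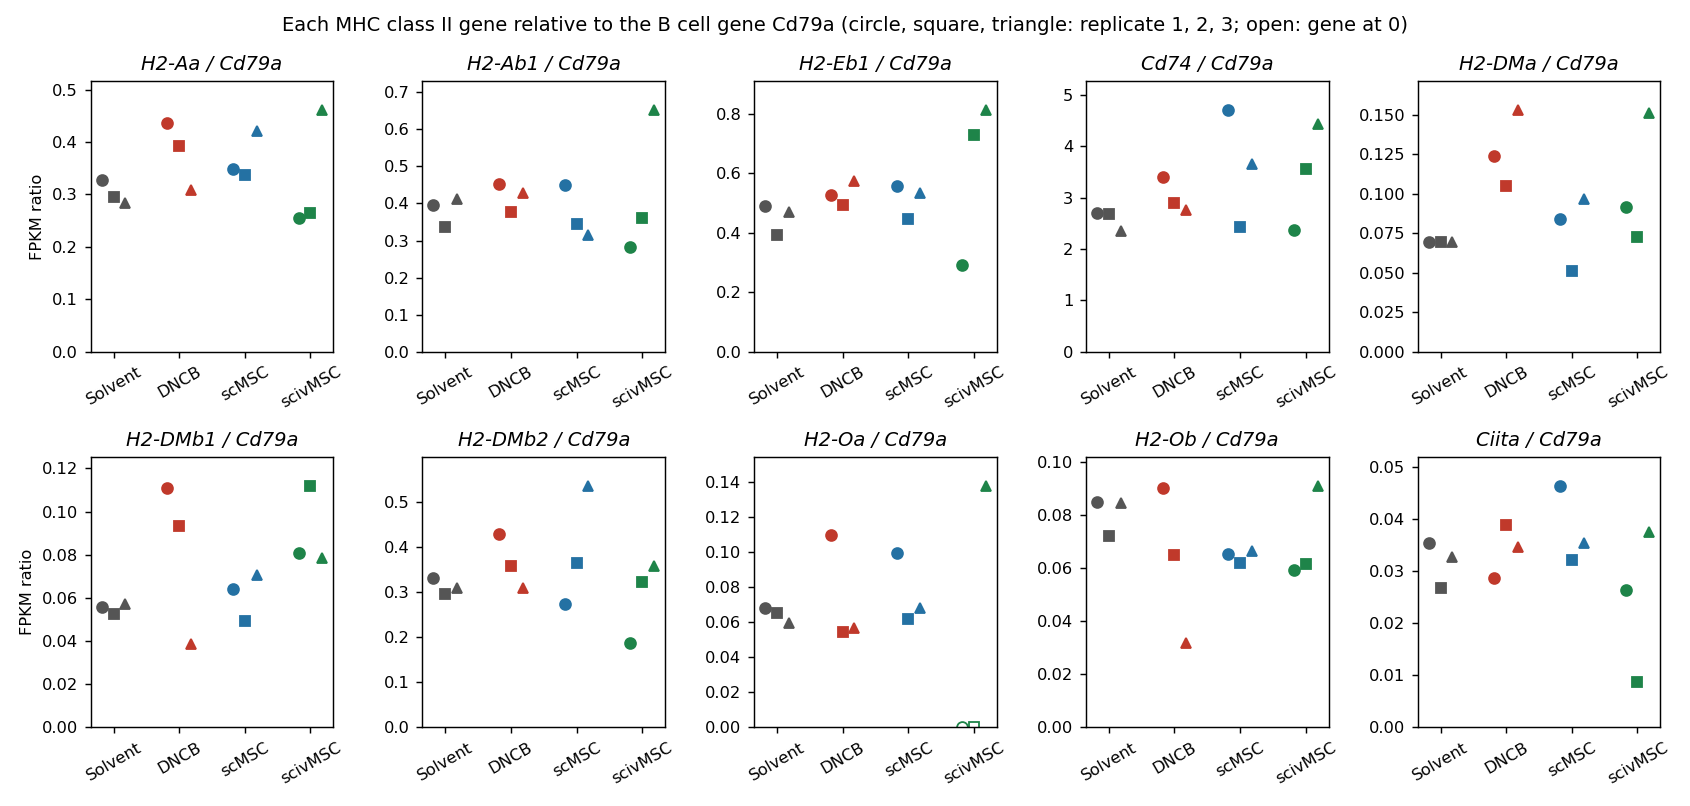
FPKM of each of the 10 class II genes divided by that of Cd79a in the same library, on linear axes from 0. For H2-Ab1 all 4 groups overlap between 0.282 and 0.652, and for H2-DMa the 3 Solvent libraries sit at 0.0693 to 0.0695, below the 3 DNCB libraries at 0.105 to 0.153. Open symbols mark H2-Oa at 0.

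Of the 10 genes, 3 had a ratio to Cd79a that was higher in every DNCB than in every Solvent library, namely H2-Eb1, Cd74 and H2-DMa, and none had one that was lower. Among all tested genes 81.7% lay higher and 0.235% lower by that measure. The ratio of Cd74 to Cd79a was 2.58 ± 0.204 (SD, n = 3) in Solvent, 3.02 ± 0.332 in DNCB, 3.60 ± 1.14 in scMSC and 3.46 ± 1.04 in scivMSC mice. That of H2-DMa ran from 0.0693 to 0.0695 in Solvent, 0.105 to 0.153 in DNCB, 0.0511 to 0.0970 in scMSC and 0.0724 to 0.151 in scivMSC libraries. H2-DMa was also the single gene whose ratio was lower in every scMSC than in every DNCB library, which 32.5% of all tested genes were. Between scivMSC and DNCB mice none of the 10 ratios was apart, against 24.0% of all tested genes lower and 24.1% higher.

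The balance between class II genes was tested with the ratio of Cd74 to H2-Ab1 and that of H2-Ob to H2-DMa. Cd74 stood at 6.85 ± 1.13 times the FPKM of H2-Ab1 in Solvent (SD, n = 3), 7.22 ± 0.677 in DNCB, 9.72 ± 2.36 in scMSC and 8.37 ± 1.55 in scivMSC mice. A difference over the 4 groups was not detected (exact permutation test, p = 0.228, adjusted p = 0.343). H2-Ob, a subunit of the inhibitor, to H2-DMa, a subunit of the exchange factor, was 1.22, 1.04 and 1.22 in Solvent, 0.727, 0.621 and 0.207 in DNCB, 0.779, 1.21 and 0.686 in scMSC, and 0.648, 0.852 and 0.604 in scivMSC libraries. The Solvent libraries lay above all DNCB and scivMSC libraries, and 1 scMSC library reached into their range. In DNCB against Solvent mice H2-Ob had the largest and H2-DMa the smallest estimated decrease among the tested class II genes (log2 fold changes -2.32 and -1.18). The ratio thus sets the extremes of the list side by side. Ratios with H2-Oa or the H2-DMb genes were not tested. In scivMSC 2 the ratio rested on 31 estimated counts of H2-Ob and 24 of H2-DMa. The ratio differed over the 4 groups before adjustment (exact permutation test, p = 0.0211) and missed the threshold after adjustment over the 3 ratios (adjusted p = 0.0633). The adjusted exact p was 0.00916 without DNCB 1 and 0.268 without Solvent 1. The part of Brd2, which overlaps H2-DMa on the other strand, was not tested.

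**Figure D5:**
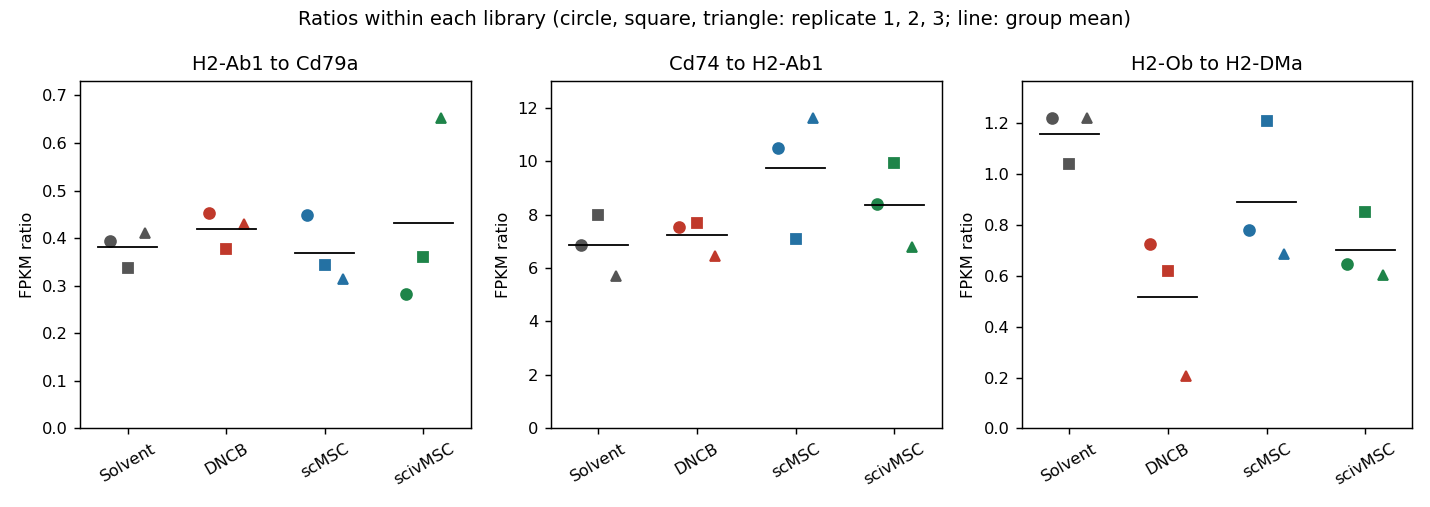
FPKM ratios of H2-Ab1 to Cd79a, Cd74 to H2-Ab1 and H2-Ob to H2-DMa in each of the 12 libraries, with a line at each group mean, on axes from 0. The ratio of H2-Ob to H2-DMa lies between 1.04 and 1.22 in the Solvent libraries and between 0.207 and 0.727 in the DNCB libraries, while the other 2 ratios overlap between all groups.

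The genes whose log2(FPKM + 1) followed that of H2-Ab1 most closely over the 12 libraries, outside the list, were H2-Ea (Pearson r = 0.992), the B cell coactivator gene Pou2af1 and the B cell receptor gene Cd79b (both 0.988), the inhibitory B cell lectin gene Siglecg (0.985) and Cd79a (0.982). They were followed by Colgalt1 and Sbk1 (both 0.981), and by Cd22, Ighm and Rexo4 (all 0.980). The other 9 genes of the list had r between 0.950 for H2-DMb1 and 0.992 for H2-Eb1. These coefficients are a description of 12 libraries in 4 groups that share the depth and composition differences given above.

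Genes that process antigen and class II molecules were looked at beside the list. Of 10 genes of lysosomal processing and turnover 9 were tested. In DNCB against Solvent mice 1 rose and 0 fell on the total-count scale, against 15.6% and 4.87% of all tested genes. After TMM scaling 1 rose and 1 fell there, where 11.5% of all tested genes were called lower. The gene that rose was Ctsd, the aspartic protease cathepsin D, with a log2 fold change of 1.65 ± 0.24 (edgeR adjusted p = 0.000119), and the lowest was Ifi30, a lysosomal thiol reductase, at -0.93 ± 0.45 (adjusted p = 0.165), which was called lower after TMM scaling at -1.03 ± 0.26 (adjusted p = 0.00681). In scMSC against DNCB mice 4 of the 9 fell, Ctsd, Ctsh, Ctss and Marchf1, against 24.9% of all tested genes. In scivMSC against DNCB mice 5 fell, those 4 and Ifi30, against 62.0% of all tested genes. After TMM scaling 1 rose and 1 fell in scMSC against DNCB mice, against 8.74% and 12.3% of all tested genes. In scivMSC against DNCB mice 4 then rose and 2 fell, against 20.6% and 18.9%. Ctss, cathepsin S, which cleaves the invariant chain, had a log2 fold change of -3.51 ± 0.45 in scivMSC against DNCB mice (edgeR adjusted p = 1.1e-05) and of -1.89 ± 0.25 after TMM scaling. Marchf1, a ubiquitin ligase that removes class II from the cell surface, had one of -2.01 ± 0.52 in scMSC against DNCB mice (edgeR adjusted p = 0.00854) and of -1.26 ± 0.31 after TMM scaling (adjusted p = 0.00723).

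Of 7 factors that bind the class II promoters 1, Nfyc, passed the filter, and its log2 fold change in DNCB against Solvent mice was -0.11 ± 0.42 (edgeR adjusted p = 0.893). Among 11 inducers and lineage factors 9 were tested. In DNCB against Solvent mice Spi1, the myeloid and B cell factor PU.1, rose by 2.93 ± 0.39 on the log2 scale (edgeR adjusted p = 6.02e-05), Ifngr2 rose as well, and Pax5, the B cell identity factor, fell by 2.48 ± 0.56 (adjusted p = 0.00423). These 3 were also called after TMM scaling, and Irf8 was then called lower too. In scMSC against DNCB mice 4 of the 9 fell with total-count scaling and 3 after TMM scaling, Spi1 under both, against 24.9% and 12.3% of all tested genes. In scivMSC against DNCB mice all 9 fell with total-count scaling and 4 after TMM scaling, against 62.0% and 18.9% of all tested genes. Ifng, the cytokine that induces Ciita outside B cells, was below the filter in these libraries. Its mean was 0.116 FPKM in Solvent, 0.0312 in DNCB and 0.0331 in scMSC mice, where the lowest library was at 0. It was listed at 0 in all 3 scivMSC libraries, and no floor was worked out for it. Of 7 co-stimulatory ligands and receptors 2 were tested, Icosl and Cd274, and neither was called in DNCB against Solvent mice. In scivMSC against DNCB mice Icosl, the ligand of ICOS, fell by 2.74 ± 0.61 (edgeR adjusted p = 0.00105), and by 1.21 ± 0.38 after TMM scaling (adjusted p = 0.0158), while Cd274, which encodes PD-L1, stood at -0.02 ± 0.40 (adjusted p = 0.970) with total-count scaling and was called higher after TMM scaling.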

How the data were processed

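Total RNA of whole blood was sequenced, and the authors deposited 1 table that gives, for 25247 genes and 12 libraries, estimated counts and FPKM. The submitters' processing notes name HISAT2 2.0, StringTie 1.3.0, Bowtie 0.12.2 and the build mm8 without their roles. Annotation release, counting rule and use of strand are not given in the sources used here. The deposited estimated counts are whole numbers, and of those from 1 to 12, 29.0% are 4 and 16.0% are 8, so a fragment was taken as about 4 counts. The deposited FPKM values are relative to all fragments of a library, those of haemoglobin genes among them. Floors cover counting error only.

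Groups and replicate numbers came from the labels. The 10 genes, the marker lists and the pathway lists were chosen with earlier results of these data known. Members were matched by gene symbol, and all 10 symbols were also found in RefSeq. Counts were tested with the quasi-likelihood method of edgeR 4.0.16 in R 4.3.3, with 4 group means over the 12 libraries scaled by total counts, on the 5527 genes that reached 1 FPKM in 3 or more libraries. A gene was called at a Benjamini-Hochberg adjusted p under 0.05 and a fold change over 2. The script was tested on simulated data. Ratios were tested on log2 of (FPKM + 0.1) by the F statistic with all 369600 arrangements of the group labels (exact permutation test), and adjusted over 3 ratios.

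Alternatives were TMM scaling, haemoglobin genes left out, DESeq2 1.42.0, limma 3.58.1 on log2(FPKM + 1) and log2(FPKM + 0.1), no filter, a mean FPKM of at least 5, counts divided by 4, each pair of groups alone, the replicate number as a block, H2-DMb1 and H2-DMb2 summed, and each library left out. TMM scaling without Solvent 1 and without scivMSC 2 was added after the data were seen. All 10 genes were named, and from each pathway and marker list the genes with the highest and lowest log2 fold change were eligible. Other list genes were named outside this rule, among them Ly6c2 and the untested Cx3cr1, Ifng, Cd209a and other dendritic cell markers. The genes most like H2-Ab1 were the 10 with the highest correlation, leaving out immunoglobulin variable genes and genes with only a systematic name. No sequences were used here.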

Additional observations from a re-analysis of the deposited data

How the results depend on the processing

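For DNCB against Solvent the 6 called genes became 2 with a mean FPKM of at least 5, a filter that only 2 of the genes passed, and 0 to 7 without 1 library (0 without Solvent 1, 2 without DNCB 3, 3 without DNCB 1). For scMSC against DNCB the 0 became 1 in a fit of these groups alone and stayed 0 without any 1 library. For scivMSC against DNCB the 8 became 0 with TMM scaling (also without Solvent 1 or scivMSC 2) and with DESeq2, 4 with haemoglobin left out, 5 with limma on log2(FPKM + 1), 2 with the mean FPKM filter, and 4 to 8 without 1 library (4 without DNCB 2). For scivMSC against scMSC the 3 became 0 with TMM scaling (also without Solvent 1 or scivMSC 2), DESeq2, the mean FPKM filter or these groups alone, 1 with limma on log2(FPKM + 1), and 0 to 4 without 1 library. For scMSC against Solvent the 3 became 8 with TMM scaling (also without scivMSC 2), haemoglobin left out, DESeq2 or limma on log2(FPKM + 1), 0 with limma on log2(FPKM + 0.1), 7 without a filter or with counts divided by 4, 9 with these groups alone, and 0 to 9 without 1 library. For scivMSC against Solvent the 9 became 2 with the mean FPKM filter and was 9 without any 1 library, while the 9 with TMM scaling became 7 without Solvent 1 and 8 without scivMSC 2, and over the 4 groups the 9 became 2 with that filter and 8 to 9 without 1 library. The cause was not tested, other than that the stricter filter tests fewer genes. Shares of all tested genes called are given only for all 12 libraries with the 1 FPKM filter, scaled by total counts or by TMM. They are not given for the alternatives or the fits without 1 library. Whether the calls of all genes moved likewise was not tested.

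With the replicate number as a block the called genes went from 3 to 0 for scMSC against Solvent, and the counts of the other comparisons were 6, 0, 8, 3 and 9, as without it. Libraries that share a number did not deviate together (correlations of their deviations from group means between -0.286 and 0.156), so the numbers were not taken to pair the samples.

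The adjusted exact p for H2-Ob to H2-DMa was 0.0132 with 1 added to FPKM and from 0.00916 to 0.268 without 1 library. With 1 added to FPKM it was 0.115 for both other ratios. It ran from 0.309 to 0.932 without 1 library for H2-Ab1 to Cd79a, and from 0.0502 to 0.858 for Cd74 to H2-Ab1.

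Of 1188 log2 fold changes of single genes under an alternative, 999 kept direction and call, 84 lost the call, 67 gained it and 38 changed direction, 10 of them among called values. For scMSC against DNCB, TMM scaling and DESeq2 gave 0.30 and 0.27 for H2-Aa, 0.19 and 0.16 for H2-Ab1, 0.31 and 0.28 for H2-Eb1, 0.60 and 0.57 for Cd74, 0.47 and 0.43 for H2-DMb2, 0.46 and 0.43 for H2-Oa, and 0.38 and 0.36 for H2-Ob. With haemoglobin left out Cd74 stood at 0.29, H2-DMb2 at 0.14, H2-Oa at 0.16 and H2-Ob at 0.05. Without DNCB 2 the values were 0.12 for H2-Aa, 0.05 for H2-Eb1, 0.38 for Cd74, 0.23 for H2-DMb2 and 0.20 for H2-Ob, and without scMSC 2 Cd74 stood at 0.14, the lowest values without 1 library being -0.77 for H2-Aa, -0.60 for H2-Eb1, -0.40 for Cd74, -0.63 for H2-DMb2 and -0.80 for H2-Ob. For scivMSC against DNCB, TMM scaling and DESeq2 gave 0.04 and 0.04 for H2-Ab1, 0.18 and 0.19 for H2-Eb1, 0.16 and 0.16 for Cd74, 0.08 and 0.09 for H2-DMb1, and 0.14 and 0.14 for H2-Ob. For scivMSC against scMSC they gave 0.09 and 0.11 for H2-DMa, and 0.16 and 0.20 for H2-DMb1. Low depth limits H2-Oa, H2-DMb1 and Ciita most, at no more than 30, 28 and 55 estimated counts in a scivMSC library.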
